A study of Mus musculus with 6 samples.

Results

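The genes that specify and mark primitive endoderm were followed in undifferentiated mouse embryonic stem (ES) cells. The set comprised 10 genes, namely the transcription factors Gata4, Gata6, Sox17, Sox7, Foxa2 and Hnf4a, the receptor Pdgfra, the endocytic proteins Dab2 and Amn, and the serum protein Afp. They were taken as every probe set whose only gene symbol in the array's annotation is 1 of these names, which gave 10 of the 18193 genes on the array and 27 of the 45037 probe sets tested. Gata4 and Sox7 lie on chromosome 14, Foxa2 and Hnf4a on 2, Pdgfra and Afp on 5, Sox17 on 1, Amn on 12, Dab2 on 15 and Gata6 on 18 (GRCm38.p6). The cultures came from the ES line EBRTcH3 (EB3) and carry a FLAG-tagged human GTF2IRD2 coding sequence in the ROSA26 locus, behind a promoter that tetracycline keeps silent. Induced cultures had been without tetracycline for 24 hours and uninduced cultures were grown with it. Each of the clones A3, A4 and A5 gave 1 array of each kind, so that both groups held 3 arrays. All cultures contain the transgene and were kept in LIF and serum, and 0 of the 6 arrays are from cells without it. Each clone was grown from a single colony, so a p-value reflects the spread of these samples alone. Without a term for clone, that spread includes differences between the clones. Culture and technical spread cannot be told apart. The probe sets are designed for mouse transcripts, and none was taken as a measure of the human transgene. In the study's own RT-PCR, A3, A4 and A5 each had more transgene RNA after 24 hours without tetracycline than with it. The insert printed for GTF2IRD2 is also much shorter than the other inserts of the study, and whether full-length protein was made is not known here.

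Primitive endoderm leaves the inner cell mass of the blastocyst and later forms the endoderm of the yolk sac, with a parietal layer that lays down a thick basement membrane and a visceral layer that takes up and secretes nutrients. FGF4 from future epiblast cells, read through FGF receptors and ERK, favours Gata6 over Nanog, and Sox17, Gata4 and Sox7 follow Gata6 in the mouse embryo. ES cells stand for the epiblast side of this choice, although cells with primitive endoderm genes can arise in ES cultures in serum, and forced expression of a GATA factor is known to turn ES cells into endoderm. In RNA from whole cultures, fewer cells of this kind and less RNA per cell cannot be told apart.

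Most of the 10 genes had signals in the range of genes that ES cells are not known to use. The values are log2 RMA summaries without a detection call, so the background was taken from 83 probe sets for 74 olfactory, vomeronasal and taste receptor genes. Their means over the 6 arrays had a median of 3.37 and a 95th percentile of 5.18, and a probe set with a mean above this percentile is here called above background. Of the 27 primitive endoderm probe sets, 4 were above background, against 48% of all probe sets. They belonged to 3 of the 10 genes, Sox7, Hnf4a and Amn, whereas 62.9% of all 18193 genes were above background at the probe set with their highest mean. The nearest above the limit was Amn, with a mean of 5.40, and the nearest below it was Dab2, with 5.10 at its highest probe set. At the receptors' 99th percentile of 5.84, 0 of the 10 genes were above background. Receptor probe sets themselves reached 7.08, and probe sets bind with different strength, so the limit ranks no gene against another.

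**Figure D1:**
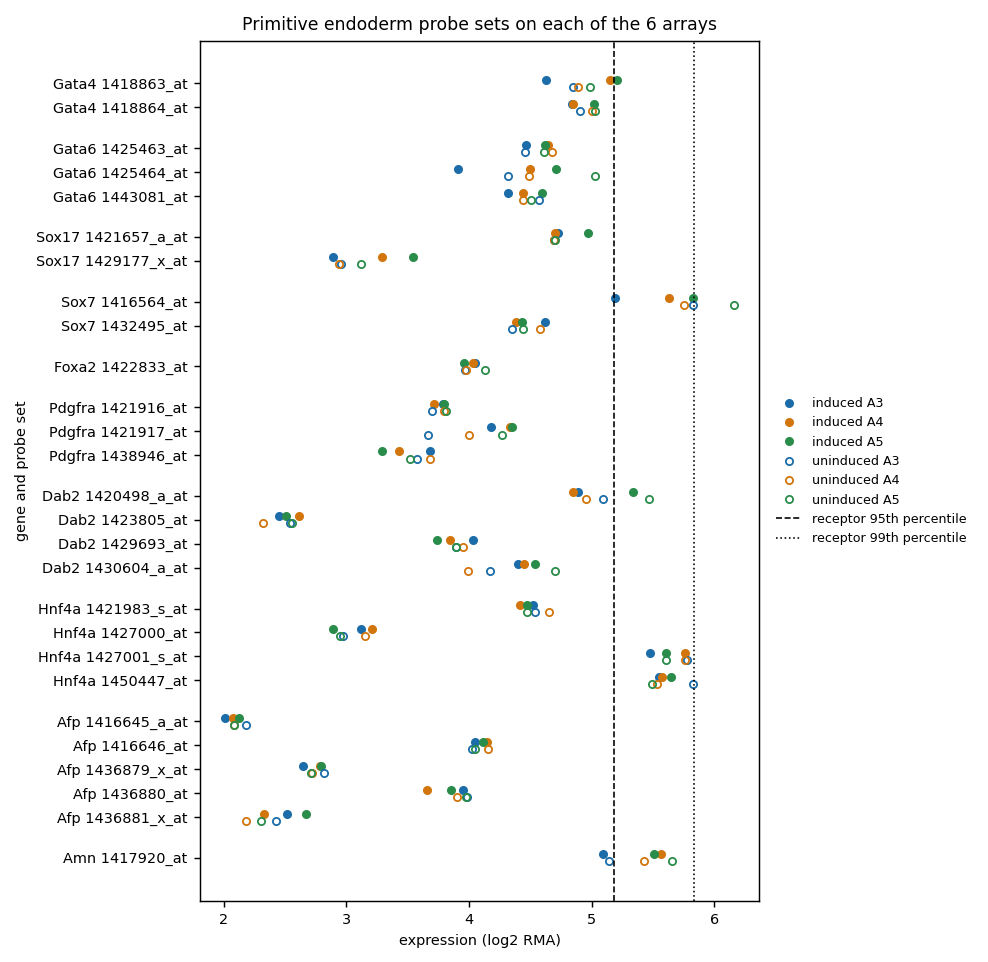
Expression (log2 RMA) of the 27 primitive endoderm probe sets on each of the 6 arrays, with filled symbols for induced and open symbols for uninduced cultures, coloured by clone. The lines mark the 95th (5.18) and 99th (5.84) percentiles of the 83 receptor probe sets, and the values of the 27 probe sets lay between 2.01 and 6.16.

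The cultures had the profile of ES cells. All 10 defining ES cell genes, among them Pou5f1, Sox2 and Esrrb, were above background, with means of 10.44 to 13.88. Of the lists for other cell types, mesoderm had 4 of 8 measured genes above background, trophoblast 5 of 9, and fibroblasts and feeder cells 4 of 10. The list for definitive endoderm and mesendoderm, which shares Sox17 and Foxa2 with the 10 genes, had 2 of 7. Of 27 genes of differentiated cells that such cultures should lack, such as Ins2, Mbp and Pomc (named after their values were seen), 12 were also above background (44.4%), so passing the limit does not by itself show expression. Array medians were 5.03 to 5.07, and the correlation between any pair of arrays was 0.996 to 0.998. Poly-A spikes, bacterial RNAs added before labelling, were 6.66 ± 0.22 in induced and 6.35 ± 0.26 in uninduced samples (log2, SD, n = 3, exact permutation p = 0.3, two-sided, smallest possible p 0.1). Hybridisation spikes, added after labelling, did not overlap between the groups, with 10.09 to 10.23 in induced and 10.04 to 10.07 in uninduced samples (exact permutation p = 0.1, adjusted p = 0.4 over 4 control measures). The part of either in the differences on induction was not tested.

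**Figure D2:**
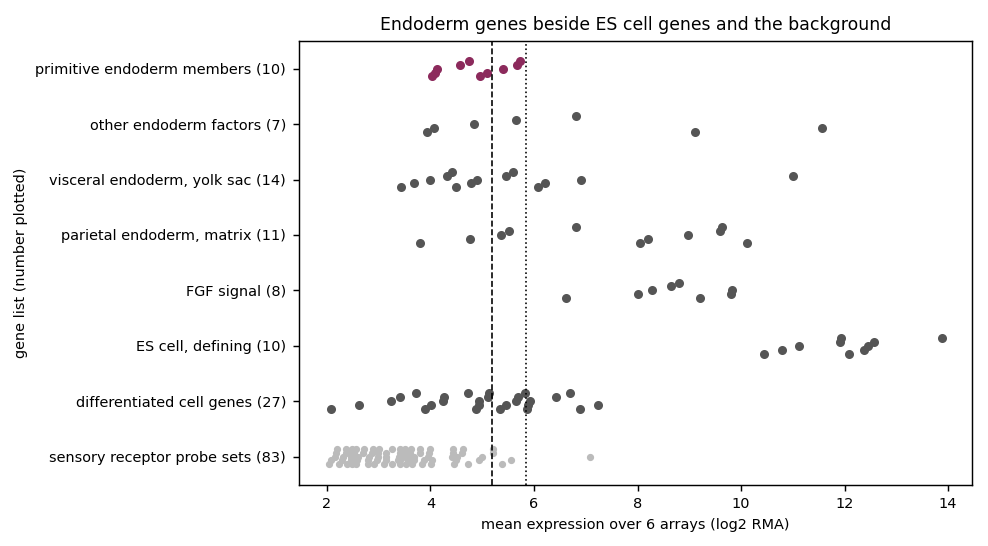
Mean expression over the 6 arrays (log2 RMA) of each listed gene, at the probe set with the highest mean. The lists shown are primitive endoderm, other endoderm factors, visceral endoderm, parietal endoderm, FGF signal, ES cells and differentiated cells. The 83 receptor probe sets are also plotted, and lines mark their 95th (5.18) and 99th (5.84) percentiles. The 10 ES cell genes lie at 10.44 to 13.88 and the 10 primitive endoderm genes at 4.02 to 5.73.

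Gata6 and Gata4 encode zinc finger factors at the head of the lineage. Gata6 had 3 probe sets, 0 of them above background. At 1425464_at it was 3.91, 4.50 and 4.71 in induced A3, A4 and A5, against 4.31, 4.49 and 5.03 in uninduced A3, A4 and A5. The groups overlapped, and in each group A3 was the lowest and A5 the highest. At 1425463_at the 6 arrays lay between 4.45 and 4.68, and at 1443081_at between 4.32 and 4.59. Both Gata4 probe sets had means just under the limit (4.95 and 4.94). At 1418863_at Gata4 was 4.62, 5.15 and 5.21 in induced A3, A4 and A5, against 4.85, 4.89 and 4.99 in uninduced A3, A4 and A5. The induced array was the lower one in A3 and the higher one in A4 and A5, so the clones shared no direction. At 1418864_at the induced array was the lower one in all 3 clones, with differences of -0.06, -0.16 and -0.01.

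GATA factors bind DNA around the letters GATA. Start sites with a window at hand were searched for AGATAA or AGATAG or TGATAA or TGATAG on both strands. No window was searched for Gata4, Gata6, Sox17 or Sox7. RefSeq windows of 250 bases before to 50 after a start (assembly GRCm38.p6) were at hand for Foxa2, Pdgfra, Dab2, Hnf4a, Afp and Amn, 10 windows in all. Of these, 3 held a match, where 29.8% of all 32851 such windows do, so the share was near that of any promoter. The 4 matches are shown, each in 30 bases on the gene's strand, because Dab2 and Hnf4a are known to depend on GATA6 in mouse endoderm and because they let the factor's letters be seen in these genes. The matched letters are in capitals, and TTATCT is AGATAA on the other strand. The Dab2 stretches lie at chr15:6299598-6299627 (plus strand, match 179 bases before the start) and chr15:6299791-6299820 (plus strand, match from base 15 after it). Those of Hnf4a and Foxa2 lie at chr2:163506793-163506822 (plus strand, match 52 bases before the start) and chr2:148045630-148045659 (minus strand, match 183 bases before the start).
Dab2 before the start: tgatttttcttcTGATAAcaggaataggag
Dab2 after the start: attctctttggcTTATCTgctgtgcatttt
Hnf4a: gaagaatcaataAGATAAccgggcggggtg
Foxa2: ctgttagccttgAGATAAtattaactttgt
A match describes letters only, and the arrays hold no measure of binding.

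Sox7 and Sox17 encode related SOX factors, both also used in endothelium. Sox7 was above background at 1416564_at, with a mean of 5.73. It was 5.19, 5.64 and 5.83 in induced A3, A4 and A5, against 5.83, 5.76 and 6.16 in uninduced A3, A4 and A5. The induced array was the lower one in each clone, while the groups overlapped because uninduced A4 lay below induced A5. The mean difference, induced minus uninduced, was -0.36 ± 0.17 on the log2 scale (SE, 95% interval -0.75 to 0.02), with -0.64 (A3), -0.12 (A4) and -0.33 (A5). This SE and interval are from the fit without a term for clone. The other Sox7 probe set, 1432495_at, had a mean of 4.47, under the limit, and differences of 0.26, -0.20 and -0.0046 in A3, A4 and A5. The pair did not share a pattern, with r = -0.57 over the 6 arrays. Sox17 at 1421657_a_at was 4.72, 4.70 and 4.97 in induced A3, A4 and A5, against 4.69, 4.70 and 4.70 in uninduced A3, A4 and A5. Only induced A5 stood apart there, and all 6 values were under the limit. At 1429177_x_at, where the ending x marks probes that may bind other transcripts, Sox17 was 2.89, 3.29 and 3.54 in induced A3, A4 and A5, against 2.96, 2.94 and 3.12 in uninduced A3, A4 and A5. Induced A5 was again the highest array.

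Foxa2, a pioneer factor that opens chromatin, and Hnf4a, a nuclear receptor that drives genes of lipid transport, are used in visceral endoderm and later in gut and liver. Foxa2 at its 1 probe set, 1422833_at, was 4.05, 4.03 and 3.96 in induced A3, A4 and A5, against 3.97, 3.98 and 4.13 in uninduced A3, A4 and A5. All 6 values were under the limit and close together. Of the 4 Hnf4a probe sets, 1427001_s_at (mean 5.66) and 1450447_at (5.61) were above background, while 1421983_s_at (4.51) and 1427000_at (3.05) were not. At 1427001_s_at, where the ending s marks probes shared by several transcripts, Hnf4a was 5.47, 5.76 and 5.61 in induced A3, A4 and A5, against 5.77, 5.76 and 5.61 in uninduced A3, A4 and A5. At 1450447_at it was 5.55, 5.58 and 5.65 in induced A3, A4 and A5, against 5.83, 5.53 and 5.49 in uninduced A3, A4 and A5. Uninduced A3 was the highest array at both probe sets, and the groups overlapped at both.

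Pdgfra, a receptor for platelet-derived growth factor, is an early surface marker of primitive endoderm that mesoderm and fibroblasts also carry. It was under the limit at its 3 probe sets. At 1421917_at it was 4.18, 4.33 and 4.35 in induced A3, A4 and A5, against 3.67, 4.00 and 4.27 in uninduced A3, A4 and A5. The induced array was the higher one in each clone, most so in A3, and the groups overlapped. The mean difference was 0.31 ± 0.14 (SE, 95% interval -0.01 to 0.63, without a term for clone). The other probe sets had mean differences of -0.0008 (1421916_at) and -0.13 (1438946_at), and 1438946_at ran against 1421917_at over the 6 arrays (r = -0.55).

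Dab2 is an adaptor that gathers receptors into coated pits and helps primitive endoderm to sort to the surface of embryoid bodies. It had 4 probe sets, 0 of them above background. At 1420498_a_at, where the ending a marks probes for several transcripts of the gene, it was 4.89, 4.84 and 5.33 in induced A3, A4 and A5, against 5.10, 4.96 and 5.47 in uninduced A3, A4 and A5. Both A5 arrays were above the other 4, and the induced array was the lower one in each clone. At 1430604_a_at Dab2 was 4.40, 4.45 and 4.54 in induced A3, A4 and A5, against 4.17, 3.99 and 4.70 in uninduced A3, A4 and A5. A5 was again the highest of each group, whereas at 1429693_at it was the lowest of the induced arrays (3.74), and at 1423805_at the 6 arrays lay between 2.32 and 2.62. Amn encodes amnionless, which anchors the uptake receptor cubilin in visceral endoderm, gut and kidney. Amn at its 1 probe set, 1417920_at, was 5.09, 5.57 and 5.51 in induced A3, A4 and A5, against 5.14, 5.43 and 5.65 in uninduced A3, A4 and A5. Both A3 arrays were below the limit and the other 4 above it. Afp, the main serum protein of the yolk sac and fetal liver, was under the limit at its 5 probe sets, with means of 2.09 to 4.09. At 1416646_at it was 4.05, 4.15 and 4.11 in induced A3, A4 and A5, against 4.02, 4.16 and 4.05 in uninduced A3, A4 and A5. Mean differences were -0.04 at 1416645_a_at, 0.03 at 1416646_at, -0.01 at 1436879_x_at, -0.13 at 1436880_at and 0.20 at 1436881_x_at.

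Whether 24 hours of transgene induction changed these genes was asked by setting the induced against the uninduced arrays. Of the 27 probe sets, 0 passed the threshold (limma, Benjamini-Hochberg adjusted p under 0.05 over all probe sets, smallest adjusted p among the 27 of 1.00), where 0% of all 45037 did. At an unadjusted p under 0.05 there were 0 of 27, against 3.12% of all. By the methods' t-test there were likewise 0 of 27, against 3.73% of all. Mean differences lay between -0.36 and 0.31, with 10 above and 17 below 0 and a median of -0.01, where the median of all probe sets was -0.00373. The largest either way, that of Sox7, is 1.29-fold. The 3 clones shared a sign at 7 of 27 probe sets, 3 higher and 4 lower in induced cultures, against 25.9% of all, so the share among the 27 was that of any probe set. The values of the groups overlapped at all 27, with 0 free of overlap, against 7.95% of all. The 95% intervals are from the fit without a term for clone and bound differences in signal only. All 27 of them excluded a 2-fold difference either way and 24 of them a 1.5-fold one. At the 23 probe sets not above background, such an interval does not bound the change of the transcript. The 4 probe sets above background had means under the receptors' 99th percentile of 5.84, so their intervals may not bound it either. A dim probe set shows less than the true change of its transcript.

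**Figure D3:**
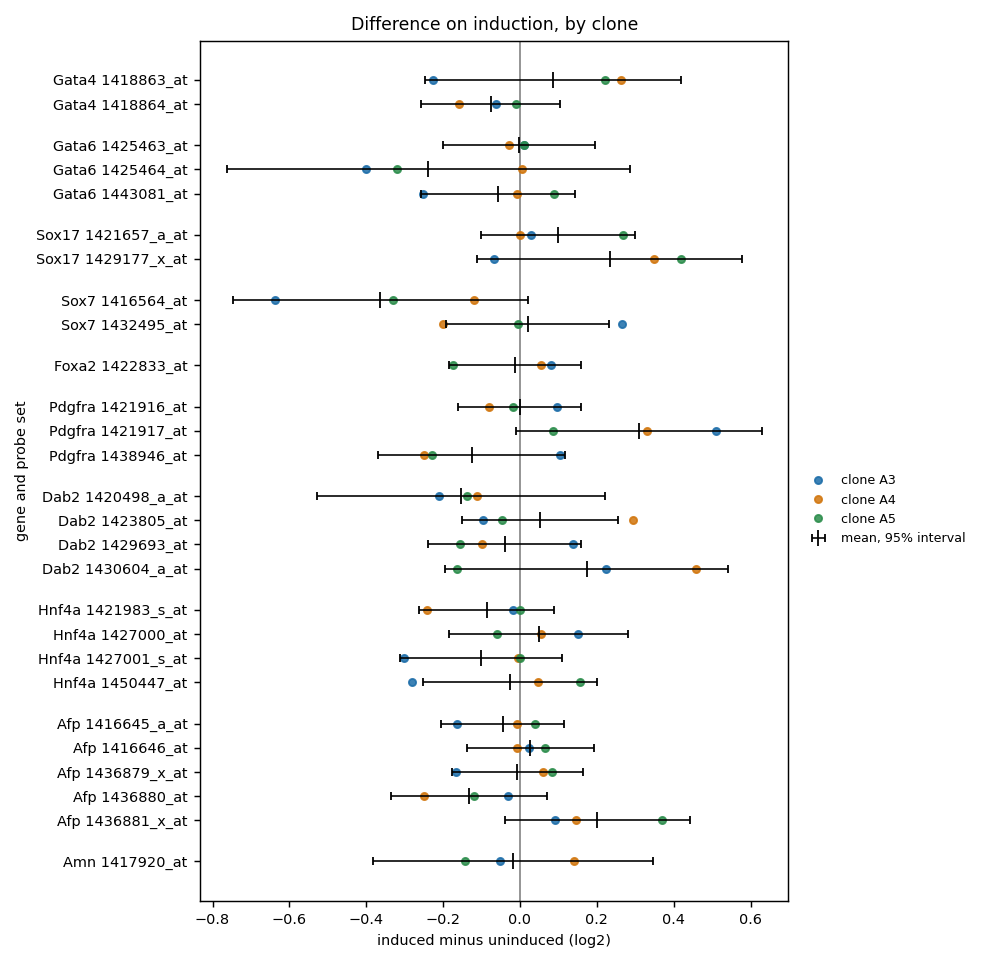
Induced minus uninduced difference (log2) of each of the 27 probe sets, with the 3 clones as coloured points. The mean and its 95% interval are from limma without a term for clone. The means lie between -0.36 (Sox7 1416564_at) and 0.31 (Pdgfra 1421917_at), and 0 of 27 passed the threshold.

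With the clone as a block, since both arrays of a pair come from the same clone, 0 of 27 passed the threshold (limma, smallest adjusted p 0.843), where 0% of all did. At an unadjusted p under 0.05 there were then 5 of 27, or 18.5%, against 5.77% of all probe sets. They were Sox7 1416564_at and Gata6 1425464_at, both lower in induced cultures, and Pdgfra 1421917_at, Sox17 1429177_x_at and Afp 1436881_x_at, higher in induced cultures. Only Sox7 1416564_at among them was above background. With the block, the SE of the difference was 0.10 for Sox7 1416564_at and 0.09 for Pdgfra 1421917_at, against 0.17 and 0.14 without it. For Sox7, Pdgfra and Afp, other probe sets of the gene differed in the opposite direction, as did those of 6 of the 8 genes with several probe sets. Gata6 and Sox17 were the exceptions. The differences of Gata6 were -0.24, -0.06 and -0.00273, all below 0 but close to 0 at 1425463_at. Those of Sox17 were 0.23 and 0.10, and its 2 probe sets, both under the limit, had r = 0.79 over the 6 arrays. At 1421657_a_at the clone differences were 0.03 (A3), 0.0011 (A4) and 0.27 (A5). At 1429177_x_at they were -0.07 (A3), 0.35 (A4) and 0.42 (A5). The median size of the difference, either way, was 0.0760 over the 27 and 0.0610 over the receptor probe sets. The largest receptor difference was 0.270, below those of Sox7 1416564_at and Pdgfra 1421917_at.

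Clones passed the threshold at more probe sets than induction did, 980 against 0 of 45037. With a term for clone beside that for induction, 2 of 27 probe sets passed the threshold (limma, F-test, adjusted over all probe sets), or 7.41%, against 2.18% of all and 0.726% of those not above background. They were Gata6 1425464_at and Dab2 1420498_a_at, both not above background, and 0 of the 4 probe sets above background passed, against 3.75% of all such probe sets. With each gene at its highest probe set, 1 of 10 passed, that of Dab2, against 3.09% of all genes. Gata6 1425464_at had clone means of 4.11 (A3), 4.49 (A4) and 4.87 (A5) (adjusted p = 0.0308 in limma), and the A3 minus A5 difference was -0.75 ± 0.11 (SE, adjusted p = 0.0174), where 1.68% of all probe sets passed between these clones. A4 did not pass against A3 (adjusted p = 0.128, 2.94% of all passed) or against A5 (adjusted p = 0.60, 0.0511% of all passed). The other Gata6 probe sets did not pass (adjusted p = 0.422 for 1425463_at and 0.800 for 1443081_at). Dab2 1420498_a_at had clone means of 4.99 (A3), 4.90 (A4) and 5.40 (A5) (adjusted p = 0.039 in limma), while no single pair of clones passed. The other A5-high Dab2 probe set, 1430604_a_at, did not pass (adjusted p = 0.310). Both calls rested on few arrays. Gata6 1425464_at lost its call without the induced (adjusted p = 0.160) or the uninduced (0.0510) array of A3 and without the induced (0.0692) or the uninduced (0.101) array of A5, and kept it without either array of A4. The range of its clone means in these 4 fits was 0.55, 0.95, 0.91 and 0.59, against 0.75 with all arrays. Dab2 1420498_a_at lost its call without any 1 of the 6 arrays (adjusted p 0.0728 to 0.174 in limma).

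A5 had the highest clone mean at 16 of the 27 probe sets, where 29.8% of all probe sets were highest in A5, and A3 had the lowest at 11 of 27, where 39.0% of all were lowest in A3, so the second count was near that of any probe set. Taking each gene at its highest probe set, A5 was highest for 7 of the 10 genes, A4 for 3 and A3 for 0, where the shares over all genes were 30.0% (A5), 35.4% (A4) and 34.6% (A3). Clone means ran in the order A3, A4, A5 from low to high for Sox7 (5.51, 5.70 and 5.99, adjusted p = 0.181) and Amn (5.11, 5.50 and 5.58, adjusted p = 0.0841), and neither passed in limma. The mean of the 10 genes was 4.67, 4.88 and 4.95 in induced A3, A4 and A5, against 4.75, 4.83 and 4.96 in uninduced A3, A4 and A5. The receptor probe sets averaged 3.35, 3.41 and 3.40 in induced A3, A4 and A5, against 3.41, 3.43 and 3.43 in uninduced A3, A4 and A5. Over all 27 probe sets the mean was 4.07, 4.16 and 4.23 in induced A3, A4 and A5, against 4.12, 4.14 and 4.23 in uninduced A3, A4 and A5. Each of these means was lowest in A3 within each group, and the clones lay closer together over the 27 probe sets than over the 10 highest ones.

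**Figure D4:**
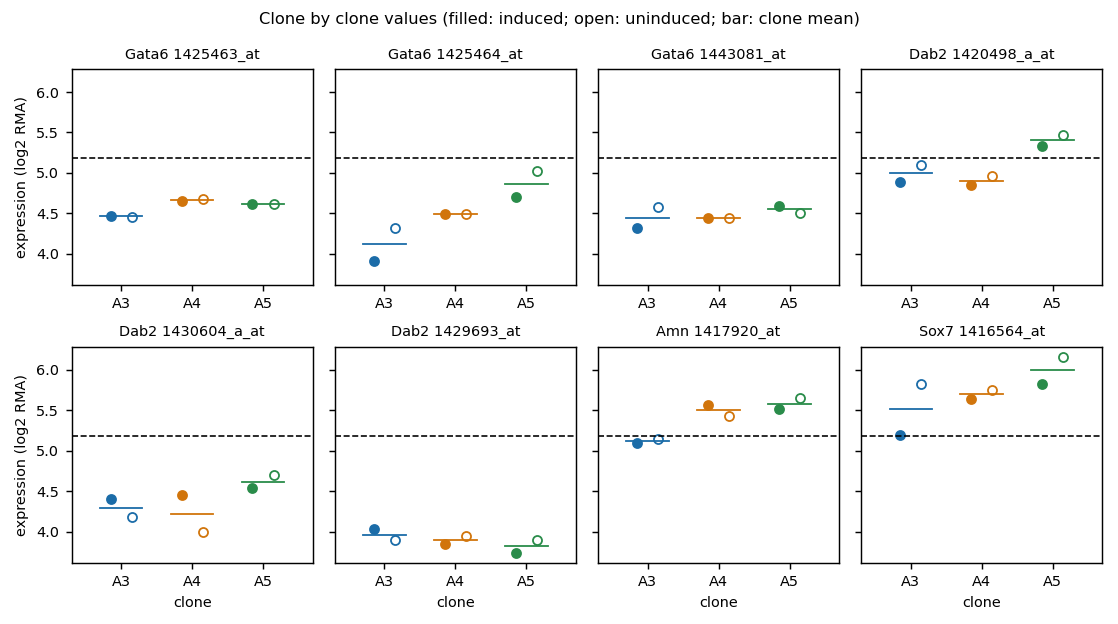
Values of selected primitive endoderm probe sets on the 6 arrays by clone (log2 RMA), filled for induced and open for uninduced cultures. Gata6 1425464_at has clone means of 4.11, 4.49 and 4.87 in A3, A4 and A5, and Dab2 1420498_a_at has 4.99, 4.90 and 5.40.

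Some genes on the lists for other lineages also differed between the clones. Of the 9 trophoblast genes, 4 passed the clone term (limma), against 3.09% of all genes, and the clone mean was lowest in A3 for 7 of 9, against 41.0% of all genes. Tfap2c, a factor that trophoblast shares with germ cells, was 8.32 (A3), 9.42 (A4) and 9.10 (A5) (adjusted p = 0.00233), and Eomes was 6.01, 6.88 and 6.64 (adjusted p = 0.0107). Other trophoblast factors did not follow. Cdx2, Elf5 and Hand1 were not above background and did not pass (adjusted p = 0.436, 0.368 and 0.382 in limma). Summed over the 9 genes, levels were 49.7 to 50.4 (A3), 53.7 to 54.2 (A4) and 52.9 to 53.2 (A5), with 49.7 to 54.2 in induced and 50.4 to 53.7 in uninduced cultures. The summed trophoblast genes were highest in A4 and the mean of the primitive endoderm genes in A5. Of the 7 measured genes of definitive endoderm and mesendoderm, 2 passed the clone term (limma), or 28.6%. They were Eomes, which is on both lists, and Kit, with 8.02 (A3), 8.52 (A4) and 8.45 (A5) (adjusted p = 0.0423). The poly-A spikes had clone means of 6.75 (A3), 6.46 (A4) and 6.31 (A5). The part of these lineage genes or of the spikes in the clone differences of Gata6 and Dab2 was not tested.

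Genes around the primitive endoderm factors gave the same counts on induction, with 0 past the threshold in each list. Of the 9 other endoderm transcription factors 7 were measured and 4 were above background, and 0 passed the clone term. The smallest p-values on induction were those of Foxa1 (-0.17 ± 0.12, SE), Cited2 (0.10 ± 0.11) and Hhex (-0.07 ± 0.09). Of 15 visceral endoderm products 14 were measured, 6 were above background and 0 passed the clone term. Cubn, the receptor that Amn anchors, was 5.18 (A3), 5.51 (A4) and 5.67 (A5) (adjusted p = 0.153 in limma), an order shared with Amn. Lrp2, which works beside cubilin, was 7.15, 6.61 and 6.99 in A3, A4 and A5 (adjusted p = 0.111).

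The list for parietal endoderm and matrix includes basement membrane genes that ES cells also use. It had 9 of 11 genes above background, against 62.9% of all genes, and 2 that passed the clone term in limma, against 3.09% of all genes. Lama1, a laminin chain, was 8.39 (A3), 7.69 (A4) and 8.05 (A5) (adjusted p = 0.0393), and Snai1 was 5.66, 5.17 and 5.25 (adjusted p = 0.0436). Both were highest in A3, the clone in which Gata6 1425464_at was lowest. Of the FGF genes 8 of 9 were measured and all 8 were above background, 2 of which passed the clone term, beside the same shares of all genes. Fgf4, the ligand, was 10.16 (A3), 9.65 (A4) and 9.69 (A5) (adjusted p = 0.0287), while Dusp6, a phosphatase that ERK signalling induces, was 8.93, 9.23 and 9.49 (adjusted p = 0.0299). The ligand was thus highest in the clone with the lowest Dusp6. The receptor Fgfr2 was 6.89, 6.59 and 6.37 in A3, A4 and A5 (adjusted p = 0.191). On induction Fgfr1 had the smallest p of this list, with a difference of -0.16 ± 0.09 (SE).

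The genes whose pattern over the 6 arrays was most like that of the 3 genes above background were found among 11434 other genes above background. For Sox7 they were Ncs1 (r = 0.999) and Jarid2 (0.995), for Hnf4a Pdxk (0.985) and Gm3912 (0.984), and for Amn Slbp (0.997) and Asnsd1 (0.995). With 6 arrays that share clones, such values are common, and 160 genes for Sox7, 52 for Hnf4a and 395 for Amn had r over 0.9. Among the 27 probe sets themselves, most of them not above background, the median r was 0.14 over the 31 pairs of the same gene (-0.73 to 0.87) and 0.09 over the 320 pairs of different genes.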

How the data were processed

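RNA from 6 ES cell cultures was hybridised to Affymetrix mouse arrays. The deposited values are log2 expression per probe set, which the authors made by RMA (background correction, quantile normalization and median polish) with the affy package. Its version and the arrays normalized together are not given in the sources used here. Quantile normalization forces arrays to 1 distribution, and RMA gives dim probe sets compressed differences. No values were changed, and 0 columns of sample values were left out.

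Of 45101 probe sets, 64 controls were left out, and genes were named through the platform table (34945 probe sets with 1 symbol, 932 with several, 9160 with none). Groups were compared with limma 3.58.1 in R 4.3.3 (lmFit, eBayes), without a block, since the study's methods name a t-test and no pairing, and with Benjamini-Hochberg adjustment over the 45037 probe sets. A second fit had clone and induction terms. Array number, 3 per group, limits the precision, and no read depth applies. The replicate numbers are clones, and same-clone arrays deviated together (correlations 0.524, 0.376 and 0.210), so they are paired. Alternatives were the replicate block, the methods' t-test, a filter on dim probe sets, an intensity trend, centring, left-out arrays and clones, other background limits and the mean over probe sets. The code was tested on simulated data.

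All 10 genes and every probe set of theirs are named, with up to 3 genes per other list by the smallest p for induction and for clone, and the 2 genes most like each gene above background. The genes and lists were chosen with earlier results of these data known.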

Additional observations from a re-analysis of the deposited data

How the results depend on the processing

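The count of primitive endoderm probe sets past the threshold on induction was 0 in the unpaired comparison and in all 14 alternatives, the replicate block, the methods' t-test and each left-out array or clone among them. Of the 27 differences, 14 kept their sign in every alternative. The clone term gave 980 probe sets in all, and 1885 with only probe sets of a mean of at least 5, 2641 with an intensity trend and 26 without clone A3. Leaving out 1 array gave 248 to 860, lowest without induced A3, with 413 without uninduced A3 and 633 without uninduced A4. Of the 27, the clone term called 2, and 0 without the induction term, without clone A3 or without clone A5, with 0 to 1 when 1 array was left out. Single calls were gained in 3 cases, all of Amn (adjusted p = 0.0272 with the filter on dim probe sets, 0.0398 with the trend and 0.0468 without clone A4 in limma), and lost in 17, of Gata6 1425464_at and Dab2 1420498_a_at. The number of genes above background was 3, and 0 at the receptors' 99th percentile, 0 at the 95th percentile of genes of differentiated cells (6.58) and 2 where the lowest array had to pass. The cause of these changes was not tested. Fewer samples remain where arrays are left out. Signals near background limit what can be said: a transcript in few cells can lie under the limit, and a change in it can be missed.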
